A study of Lobosphaera incisa with 32 samples.

Results

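The early response described here sets *Lobosphaera incisa* cells after 12 h without nitrogen (N) against the nutrient-replete culture they came from, across all genes. *L. incisa* is a green microalga that stores triacylglycerols rich in arachidonic acid (ARA) when N runs out, and the wider study followed autophagy, lipid droplets and polyphosphate in strain SAG 2468 under N and phosphorus deprivation. RNA was sequenced from 32 samples in 4 conditions, with 2 biological replicates of 4 technical replicates in each, and 16 of these samples belong to the pair of conditions compared here. The N-deprived cells were washed, moved to medium without N and kept for 12 h at 150 µmol photons per square metre and second, which is high light (HL) in the study's terms. The replete culture was sampled at 0 h in logarithmic growth at 75 µmol photons, which is normal light (NL). The remaining conditions, 72 h without N in NL and in HL, are given only as levels beside the 12 h value. All cultures were axenic, of a single strain, and grown in bubbled glass columns. N supply, light, time and the transfer to new medium differ together between the 12 h cells and the replete culture, and their parts cannot be told apart.

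Each condition has 1 pooled value per gene, in FPKM, the number of fragments scaled by gene length and by the total of the library. A difference is the log2 ratio of the 12 h level to the replete level after adding 1 FPKM to both, less the median of that ratio over all genes kept, which is called the centred log2 ratio. It understates the difference of genes with low FPKM. Genes with at least 1 FPKM in either condition were kept, which left 14043 of 16722 genes and removed 2679. The lowest level just inside this limit was 1 FPKM and the highest just outside it was 0.99 FPKM. Before centring, the median log2 ratio was 0.20, so a gene at the median had a ratio of 1.15. The pooled libraries held 285924034 expected counts at 12 h and 148630272 in the replete culture. The quantification values used here carry no spread between cultures and allow no test, and every difference below describes these pooled libraries. RSEM, the quantification program, also gives a 95% interval of each level, which covers counting error and the assignment of reads alone.

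Algae deprived of N stop dividing, take apart part of their photosynthetic and protein-making machinery, and redirect carbon to starch and oil held in lipid droplets. Autophagy is the route by which a cell encloses its own cytoplasm in a double membrane and delivers it to the vacuole for breakdown and reuse. A kinase complex starts the process, a lipid kinase complex marks the membrane, ATG9 and its partners supply lipid, and a pair of ubiquitin-like conjugation systems fix ATG8 to the growing membrane. The gene models carry identifiers without product names in the files, so genes could be named only where the study ties a name to an identifier. This gives 31 genes, of which 22 are ATG-related and 9 belong to lipid droplets and ARA, fatty acid β-oxidation, polyphosphate or the reference genes of quantitative PCR. The study found the ATG-related genes by a search of the genome for orthologs, and it picked PAPase for its higher level without N in this transcriptome.

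Across the transcriptome, 1869 genes (13.3%) were at least 2-fold higher at 12 h and 1057 (7.53%) were at least 2-fold lower, after centring. Without centring the split was 2386 higher and 806 lower. The middle 50% of genes lay between centred log2 ratios of -0.41 and 0.48, and the 5th and 95th percentiles were -1.30 and 1.79. At a fold of 4 the counts were 501 higher (3.57%) and 333 lower (2.37%). At a fold of 8 there were 81 higher and 170 lower, and at a fold of 16 there were 21 higher (0.15%) and 94 lower (0.669%). Up to a fold of 4 more genes were higher than lower, and at folds of 8 and 16 more were lower than higher. With the pseudocount of 1 FPKM, a gene can be 16-fold lower only if its replete level was well above that pseudocount, and low genes that were absent at 12 h cannot reach this size. The RSEM intervals of FPKM did not overlap for 12578 genes (89.6%), of which 8116 (57.8%) were higher and 4462 (31.8%) lower before centring. Since they were compared before centring, the shift shared by all genes also sets intervals apart. The count thus does not give how many centred differences exceed counting error, and the spread between cultures is not known. A pattern picked out after seeing the plot of level against difference concerns the 5656 genes with a mean level, taken on the log scale, between 3 and 15 FPKM. Their upward differences did not thin out steadily with size. In steps of 0.25 in centred log2 ratio, 178 genes lay 1 to 1.25 above the median of all genes, 151 lay 1.25 to 1.5 above, 174 lay 1.5 to 1.75 above, 134 lay 1.75 to 2 above and 111 lay 2 to 2.25 above. In the same steps below the median there were 111, 63, 32, 22 and 15 genes. From the step at 1 to the step at 1.5, the higher genes of these levels thus went from 178 to 174, where the lower genes went from 111 to 32. The levels and steps were set after seeing the plot, and the shape was not tested.

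**Figure D1:**
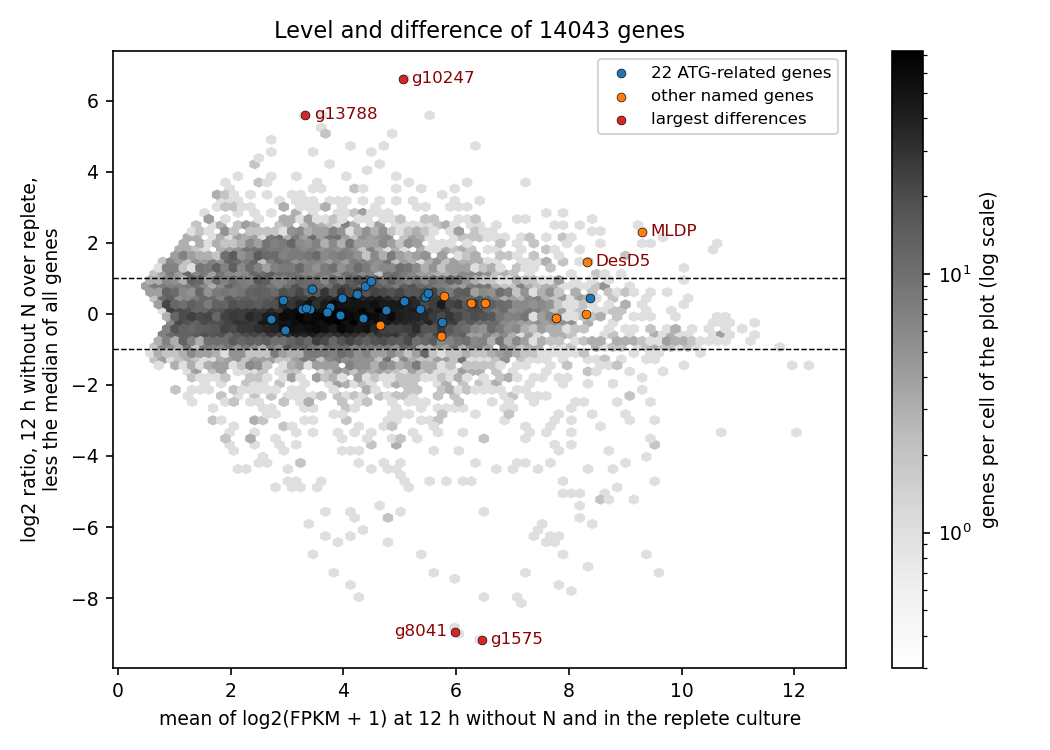
Centred log2 ratio of 12 h without N over replete (vertical axis) against the mean log2(FPKM + 1) of both conditions (horizontal axis) for the 14043 genes kept. Grey cells are shaded by the number of genes on a log scale, blue points are the 22 ATG-related genes, orange points the other named genes and red points the identifiers with the largest differences, and dashed lines mark a 2-fold difference. All ATG-related genes lie between the dashed lines, MLDP and DesD5 lie above the upper one, and g1575 and g8041 lie furthest below the lower one.

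The genes at least 2-fold higher were expressed at low to middle levels in the replete culture. Their median was 21.7 FPKM at 12 h and 4.52 FPKM in the replete culture, and it stood at 3.40 FPKM at 72 h in NL and 3.27 FPKM in HL. Together they held 19.1% of all transcripts, counted on the TPM scale, which weighs each gene by transcripts and not by length, at 12 h and 4.10% in the replete culture, and they held 9.97% at 72 h in NL and 10.8% in HL. These genes were chosen for their 12 h and replete values, and the 72 h levels were not used in choosing them, though they are set beside the same replete culture. The medians of the set at 72 h were thus below its replete median, while its summed share was above the replete share. How each gene's 72 h level stood to its own replete level was not counted.

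The genes at least 2-fold lower came from higher replete levels. Choosing by a ratio to the replete level by itself favours high replete levels here and low ones among the 2-fold higher genes. The changes in the shares of both sets follow in part from that choice. Over all genes kept the median was 15.9 FPKM at 12 h and 13.1 FPKM in the replete culture. The 2-fold lower genes had a median of 10.9 FPKM at 12 h and 37.7 FPKM in the replete culture. Their medians at 72 h were 10.4 FPKM in NL and 9.36 FPKM in HL. Their share of all transcripts was 8.01% at 12 h and 36.3% in the replete culture, and it was 10.2% at 72 h in NL and 10.03% in HL. For this set the 72 h medians lay close to the 12 h median in both lights.

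Of the 94 genes at least 16-fold lower, 75 had 100 FPKM or more in the replete culture, where 935 genes of the transcriptome reached that level. Their median was 6.94 FPKM at 12 h and 430.5 FPKM in the replete culture, and they held 0.381% of all transcripts at 12 h and 14.9% in the replete culture. Their medians at 72 h were 3.00 FPKM in NL and 1.85 FPKM in HL. The identifier g1575 had 2.92 FPKM at 12 h (RSEM interval 2.70 to 3.15) and 1963 FPKM in the replete culture (1955 to 1971), a centred log2 ratio of -9.17. It had 21.8 FPKM at 72 h in NL and 4.49 FPKM in HL. The identifier g8041 had 2.06 FPKM at 12 h (1.92 to 2.21) and 1304 FPKM in the replete culture (1299 to 1309), a centred log2 ratio of -8.94. Its levels at 72 h were 7.47 FPKM in NL and 3.96 FPKM in HL. Both were among the more abundant transcripts of the replete culture and were near the minimum of 1 FPKM at 12 h.

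The 21 genes at least 16-fold higher had a median of 79.0 FPKM at 12 h, with a range of 23.3 to 449.9 FPKM, and a median of 1.17 FPKM in the replete culture, where the highest reached 14.3 FPKM. Their medians at 72 h were 15.96 FPKM in NL and 39.8 FPKM in HL. The identifier g10247 had 350 FPKM at 12 h (349 to 352) and 2.12 FPKM in the replete culture (2.00 to 2.25), a centred log2 ratio of 6.61. It had 194 FPKM at 72 h in NL and 248 FPKM in HL, so its level was high in each N-deprived condition. The identifier g13788 had 73.9 FPKM at 12 h (73.2 to 74.6) and 0.34 FPKM in the replete culture (0.28 to 0.41), a centred log2 ratio of 5.60. Its levels at 72 h were 2.31 FPKM in NL and 19.9 FPKM in HL, both far below the 12 h level. The order of g10247 and g13788 turned with the pseudocount. The centred log2 ratios were 7.08 for g10247 and 7.17 for g13788 at a pseudocount of 0.1 FPKM, and 7.14 and 7.54 with none. By the authors' mean normalized counts they were 7.34 and 7.43 in that order. Only 1 count was added there, so these values do not show a separate dependence on the scaling.

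The transcript pool was spread over more genes at 12 h. The 100 most abundant genes of each condition held 19.7% of all transcripts at 12 h and 32.1% in the replete culture, against 23.7% at 72 h in NL and 24.1% in HL. The top 10 genes held 4.39% at 12 h and 9.21% in the replete culture, and the single most abundant gene held 0.585% at 12 h and 1.87% in the replete culture. It took 916 genes to account for 50% of all transcripts at 12 h and 333 in the replete culture, while at 72 h it took 615 genes in NL and 595 in HL. The highest level of any gene was 3436 FPKM at 12 h and 12534.5 FPKM in the replete culture.

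**Figure D2:**
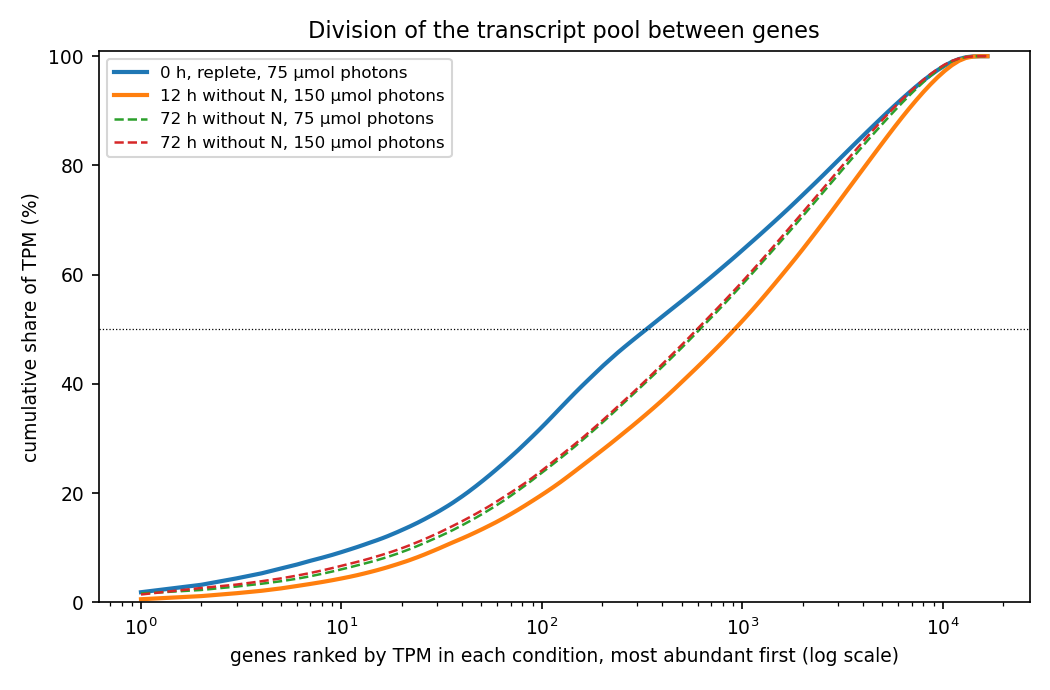
Cumulative share of TPM (percent, vertical axis) held by genes ranked from the most abundant downward in each condition (horizontal axis, log scale). The 12 h curve (orange) runs below the replete curve (blue) and below both 72 h curves (dashed), and crosses the dotted 50% line at 916 genes, where the replete curve crosses it at 333.

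Genes with 1000 FPKM or more numbered 41 at 12 h and 111 in the replete culture. At lower limits the order turned, with 1031 genes at 100 FPKM or more at 12 h and 935 in the replete culture, 9178 genes at 10 FPKM or more at 12 h and 8281 in the replete culture, and 13823 genes at 1 FPKM or more at 12 h and 13516 in the replete culture. Of the 111 genes at or above 1000 FPKM in the replete culture, 64 were at least 2-fold lower at 12 h, 47 were within 2-fold and 0 were at least 2-fold higher. Their median was 565 FPKM at 12 h and 1628 FPKM in the replete culture, and their share of all transcripts was 12.9% at 12 h and 33.8% in the replete culture. They were chosen for a high replete level, which by itself favours lower values elsewhere. Chosen the other way, the 41 genes at or above 1000 FPKM at 12 h comprised 9 at least 2-fold higher, 4 at least 2-fold lower and 28 within 2-fold, with medians of 1525 FPKM at 12 h and 1635 FPKM in the replete culture. The abundant genes of both conditions were short, with a median gene length of 812 bases for the 111 genes and 662 bases for the 41. Over all genes kept the median was 1854 bases.

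Level and length both went with the direction of the difference. When the genes kept were split into 5 equal groups by their mean level, 19.0% of the lowest group was at least 2-fold higher and 7.19% at least 2-fold lower, while 10.2% of the highest group was higher and 12.5% lower. Split into 5 groups by gene length, the longest group (2858 bases or more) had 17.4% higher and 4.34% lower, and the shortest (71 to 1194 bases) had 11.4% higher and 10.7% lower. The 2-fold higher genes had a median length of 2045 bases and the 2-fold lower genes 1552 bases. Within the group of highest level, the longest genes had 13.6% higher and 6.99% lower, and the shortest 7.38% higher and 14.8% lower. In the second highest group by level the longest genes had 10.6% higher and 8.23% lower, and the shortest 10.7% higher and 7.88% lower, so the length gradient was not present at every level.

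Few genes were expressed in one condition and near absent in the other. At 1 FPKM or more in one condition and below 0.1 FPKM in the other, without centring, 48 of the 14043 genes kept were listed at 12 h only and 5 in the replete culture only. The 48 genes had a median of 2.35 FPKM and a highest level of 17.6 FPKM at 12 h, and 11 of them reached 5 FPKM. In the replete culture 3 of the 48 had an expected count of 0 and the others had up to 143. At 72 h, 7 of the 48 had 1 FPKM or more in NL and 13 in HL. The 5 genes of the replete culture lay between 1.45 and 16.5 FPKM there.

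MLDP and DesD5, the genes of lipid storage and ARA synthesis, had the largest differences of the 31 named genes. MLDP (g555) encodes the major lipid droplet protein that coats the oil bodies of green algae. It had 1500 FPKM at 12 h (1497 to 1503) and 261 FPKM in the replete culture (259 to 263), a ratio of 5.75 and a centred log2 ratio of 2.32. This placed MLDP 260th of 14043 genes, above 98.1% of them, and among the 41 genes at or above 1000 FPKM at 12 h. Its level at 72 h was 901 FPKM in NL and 1212 FPKM in HL, so the 12 h level was the highest of the 4 conditions. DesD5 (g4602) encodes the Δ5 desaturase that carries out the last step of ARA synthesis. It had 570 FPKM at 12 h (569 to 572) and 179 FPKM in the replete culture (177 to 180), a ratio of 3.19 and a centred log2 ratio of 1.47, above 92.2% of genes. DesD5 stood at 1316 FPKM at 72 h in NL and 1178 FPKM in HL, both above the 12 h level. MLDP was thus already at its highest recorded level at 12 h and DesD5 was not.

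The 22 ATG-related genes all differed by less than a fold of 2 after centring. Of them 17 lay above the median of all genes and 5 below it, and this split was not tested. At 12 h 0 of them were at least 2-fold higher, where 13.3% of all genes were, and 0 were at least 2-fold lower, where 7.53% were. Their centred log2 ratios ran between -0.45 and 0.92 with a median of 0.17, where the median over all genes kept is 0 by construction. Without centring the median of the 22 was 0.38, where that of all genes was 0.20. At a fold of 1.5, 4 of the 22 were higher, where 21.7% of all genes were, and 0 were lower, where 16.8% of all genes were. Before centring, the RSEM intervals of FPKM did not overlap for 20 of the 22, where 89.6% of all genes had intervals apart. The median of the 22 levels was 19.4 FPKM at 12 h and 13.6 FPKM in the replete culture. Compared over the 4 conditions, 11 of the 22 had their highest FPKM at 12 h, where 41.5% of all genes did, 11 had it at 72 h and 0 in the replete culture. Of the 14043 genes kept, 4922 had it at 72 h and 3292 in the replete culture. After centring each condition on the median of all genes, 5 were highest at 12 h, where 28.8% of all genes were, 16 at 72 h and 1 in the replete culture, where 6344 of all genes were highest at 72 h and 3653 in the replete culture.

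**Figure D3:**
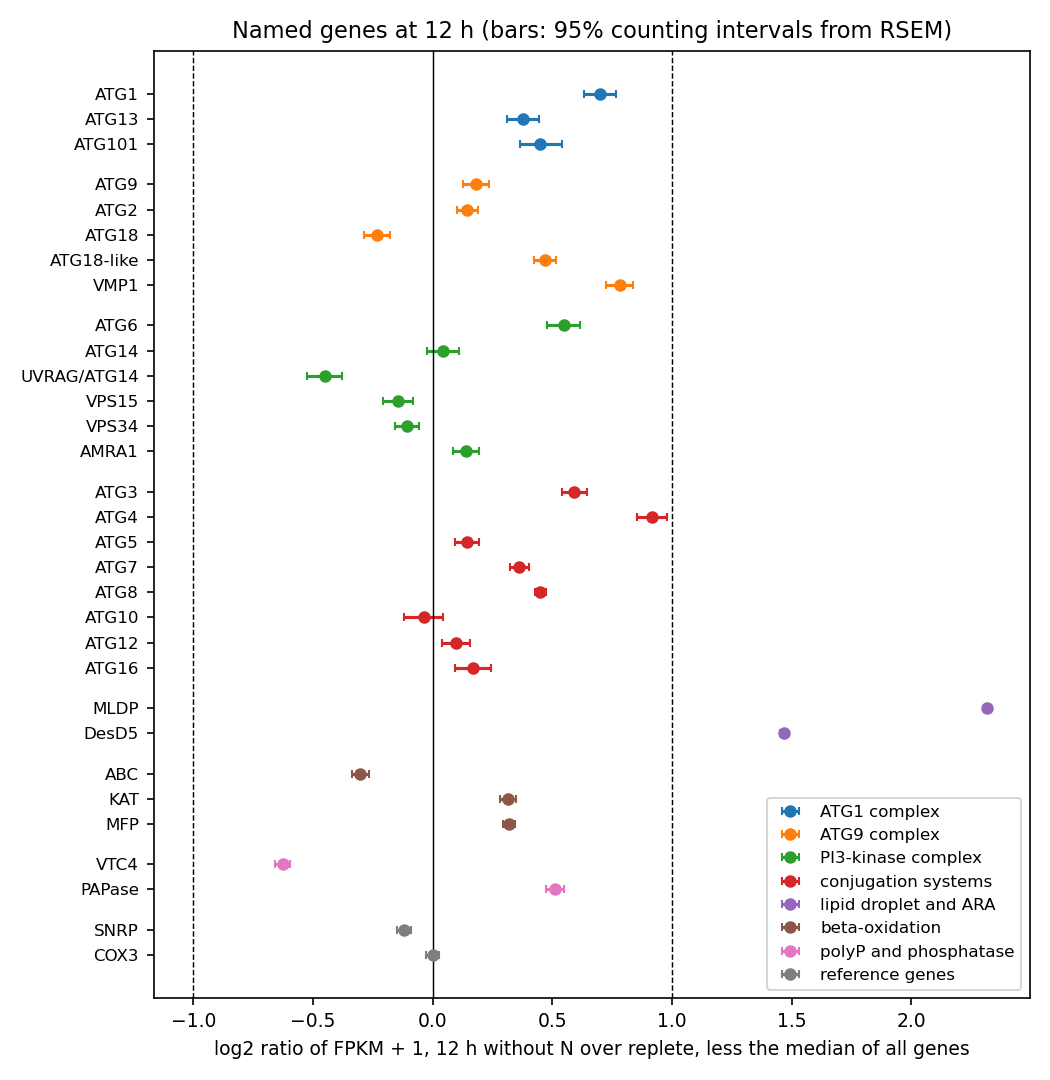
Centred log2 ratio of 12 h without N over replete (horizontal axis) for the 31 named genes, coloured by group, with bars for the bounds that the 95% RSEM intervals of both FPKM values allow, which cover counting and read assignment only. The solid line marks the median of all genes and the dashed lines a 2-fold difference. MLDP at 2.32 and DesD5 at 1.47 lie beyond the upper dashed line, ATG4 at 0.92 is the closest to it of the ATG-related genes, and VTC4 at -0.63 is the lowest.

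The ATG1 complex starts autophagosome formation, and its 3 genes were all above the median of all genes. ATG1 (g10441), the protein kinase, had 13.9 FPKM at 12 h and 6.96 FPKM in the replete culture, a centred log2 ratio of 0.70. ATG13 (g9857), a regulatory subunit of the kinase, had 8.35 FPKM at 12 h and 5.25 FPKM in the replete culture, a centred log2 ratio of 0.38. ATG101 (g4696), which binds ATG13, had 18.8 FPKM at 12 h and 11.6 FPKM in the replete culture, a centred log2 ratio of 0.45. By FPKM the kinase gene had the largest difference of the complex. Its centred bounds of 0.63 to 0.77 lay above those of ATG13, 0.31 to 0.44, and of ATG101, 0.36 to 0.54. By mean normalized counts the centred log2 ratio was 0.61 for ATG1, 0.57 for ATG101 and 0.29 for ATG13, so ATG1 and ATG101 were close. At 72 h ATG1 had 17.7 FPKM in NL and 14.6 FPKM in HL, and ATG101 had 32.8 and 25.5 FPKM in the same order of lights. ATG13 had 5.64 FPKM at 72 h in NL and 5.15 FPKM in HL, near its replete level, and was highest at 12 h.

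ATG9 and its partners bring membrane lipid to the growing autophagosome, and the 5 genes of this group ranged from -0.23 to 0.78 in centred log2 ratio. VMP1 (g8948), a protein of the endoplasmic reticulum that takes part in lipid supply, had 28.3 FPKM at 12 h and 13.8 FPKM in the replete culture, a centred log2 ratio of 0.78. It had 25.9 FPKM at 72 h in NL and 26.7 FPKM in HL. The highest level of VMP1 was thus at 12 h in FPKM, but at 72 h in HL after centring. The gene called ATG18-like (g11704) had 54.4 FPKM at 12 h and 33.8 FPKM in the replete culture, a centred log2 ratio of 0.47. ATG18 (g11431), whose product binds phosphatidylinositol 3-phosphate, had 52.5 FPKM at 12 h and 53.6 FPKM in the replete culture, with overlapping RSEM intervals and a centred log2 ratio of -0.23. The 2 related genes thus differed in opposite directions relative to the median of all genes. At 72 h they also stood apart, with 99.6 FPKM for ATG18 in NL and 105.9 in HL, while ATG18-like had 28.9 and 35.5 FPKM in the same order of lights. ATG9 (g6797), a membrane protein of small vesicles, had 14.6 FPKM at 12 h and 10.9 FPKM in the replete culture, a centred log2 ratio of 0.18. ATG2 (g11309), a lipid transfer protein, had 9.79 FPKM at 12 h and 7.48 FPKM in the replete culture, a centred log2 ratio of 0.14.

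The phosphatidylinositol 3-kinase complex marks the membrane with the lipid that ATG18 binds, and its 6 genes had a median log2 ratio of -0.03 centred and 0.17 without centring, with 3 above and 3 below the median of all genes. ATG6 (g1861), the counterpart of mammalian beclin, had 23.5 FPKM at 12 h and 13.6 FPKM in the replete culture, a centred log2 ratio of 0.55. VPS34 (g8565), the lipid kinase itself, had 20.1 FPKM at 12 h and 18.7 FPKM in the replete culture, which is -0.11 centred and 0.10 without centring. VPS15 (g14916), its regulatory partner, had 5.72 FPKM at 12 h and 5.45 FPKM in the replete culture, which is -0.14 centred and 0.06 without centring. The direction of VPS34 and VPS15 thus depended on the centring, and the RSEM intervals of VPS15 overlapped. ATG14 (g5843), which directs the complex to autophagy, had 13.2 FPKM at 12 h and 10.95 FPKM in the replete culture, a centred log2 ratio of 0.05 with bounds of -0.02 to 0.11. At 72 h ATG14 had 24.3 FPKM in NL and 19.8 FPKM in HL, so its higher levels were found at 72 h and not at 12 h. The gene assigned to UVRAG or ATG14 (g6478) had 6.11 FPKM at 12 h and 7.45 FPKM in the replete culture, a centred log2 ratio of -0.45, the lowest of the 22. It had 9.61 FPKM at 72 h in NL and 8.35 FPKM in HL, both above the replete level. AMRA1 (g9351), named after a beclin regulator of animals, had 10.9 FPKM at 12 h and 8.40 FPKM in the replete culture, a centred log2 ratio of 0.14.

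The conjugation systems attach ATG8 to phosphatidylethanolamine in the autophagosome membrane, and 6 of their 8 genes had their highest FPKM at 12 h, where 41.5% of all genes did. After centring 3 of the 8 did, where 28.8% of all genes did. ATG4 (g4008), the protease that trims ATG8 before conjugation and releases it afterwards, had 32.1 FPKM at 12 h (31.6 to 32.6) and 14.2 FPKM in the replete culture (13.8 to 14.7). Its ratio was 2.25 and its centred log2 ratio 0.92, above 85.3% of genes, and it passed a fold of 2 when the ratio was not centred (1.12). At 72 h ATG4 had 21.7 FPKM in NL and 21.0 FPKM in HL, between the 12 h and replete levels. ATG3 (g4126), the E2-like enzyme that transfers ATG8 to the lipid, had 58.3 FPKM at 12 h and 33.2 FPKM in the replete culture, a centred log2 ratio of 0.59, just past a fold of 1.5, that was 0.51 by mean normalized counts. It had 36.1 FPKM at 72 h in NL and 38.2 FPKM in HL, so ATG3 and ATG4 shared a 12 h maximum.

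ATG8 (g4496), the ubiquitin-like protein that becomes part of the autophagosome membrane, was the most abundant of the 22 transcripts in each of the 4 conditions. It had 416 FPKM at 12 h (414 to 419) and 265 FPKM in the replete culture (262 to 267), a ratio of 1.57 and a centred log2 ratio of 0.45. At 72 h ATG8 had 827 FPKM in NL and 962 FPKM in HL, so most of the higher level found at 72 h was not yet present at 12 h. ATG7 (g5114), the E1-like enzyme that activates both ATG8 and ATG12, had 40.2 FPKM at 12 h and 26.8 FPKM in the replete culture, a centred log2 ratio of 0.36.

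ATG5, ATG12 and ATG16 form the complex that acts as the ligase for ATG8. ATG5 (g10190) had 45.1 FPKM at 12 h and 35.3 FPKM in the replete culture, a centred log2 ratio of 0.14. ATG12 (g3729), itself a ubiquitin-like protein joined to ATG5, had 29.0 FPKM at 12 h and 23.4 FPKM in the replete culture, a centred log2 ratio of 0.10 that was -0.02 for its more abundant transcript alone. ATG16 (g6985), which binds the ATG5 conjugate, had 10.4 FPKM at 12 h and 7.83 FPKM in the replete culture, a centred log2 ratio of 0.17 that was -0.04 with the authors' mean normalized counts. ATG10 (g12925), the E2-like enzyme for ATG12, had 15.3 FPKM at 12 h and 13.6 FPKM in the replete culture, a centred log2 ratio of -0.04 that was 0.17 without centring. The ligase genes and ATG10 were thus near the median of all genes, and the enzymes that act directly on ATG8 stood higher, led by ATG4 and ATG3.

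**Figure D4:**
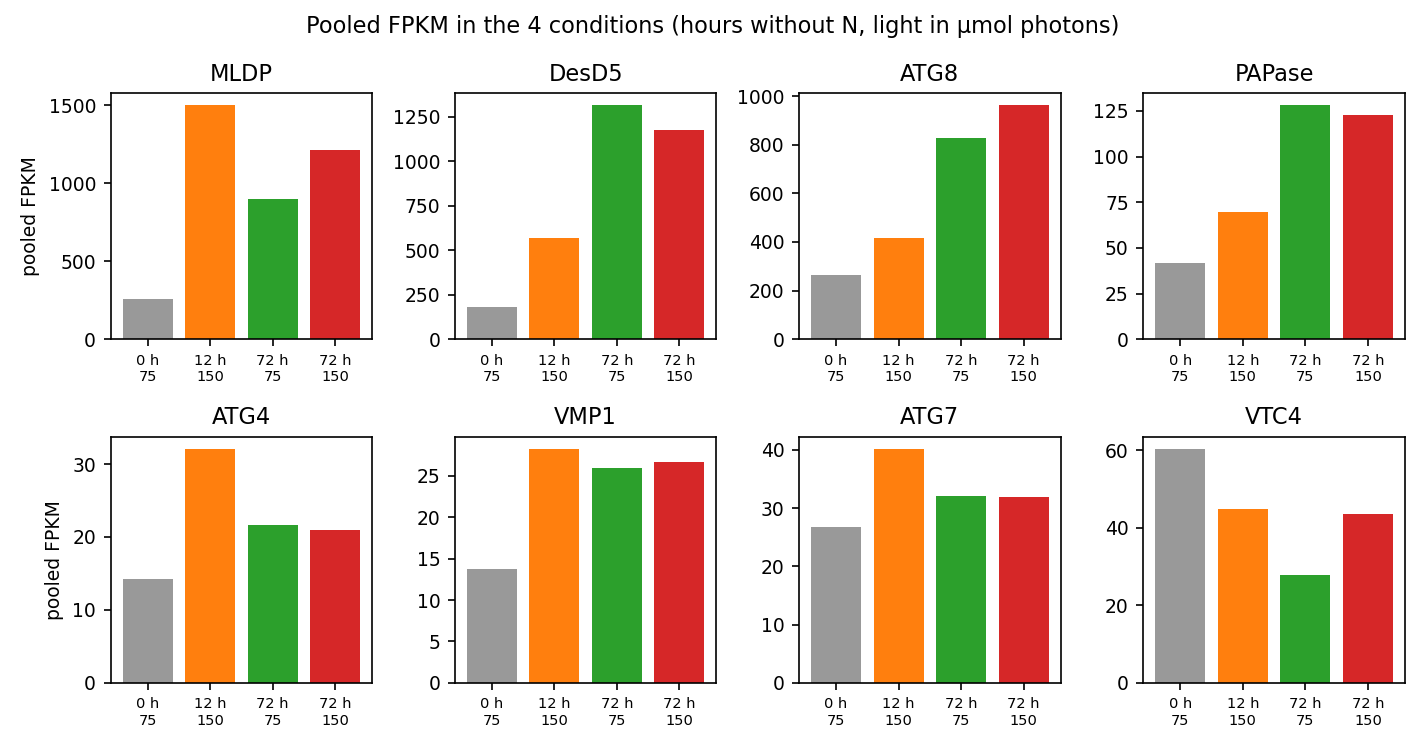
Pooled FPKM (vertical axis, from 0, with its own scale for each gene) of 8 named genes at 0 h, 12 h and 72 h, with the light in µmol photons below each bar. MLDP, ATG4, VMP1 and ATG7 have their tallest bar at 12 h, ATG8, DesD5 and PAPase at 72 h, and VTC4 at 0 h. The levels are not centred, and after centring VMP1 was highest at 72 h in HL. No error bars are drawn because each bar is 1 pooled value.

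The 2 transcripts listed for ATG7 differed in opposite directions. Transcript t1 (3058 bases) had 31.9 FPKM at 12 h (30.9 to 33.2) and 13.65 FPKM in the replete culture (12.5 to 14.7), a ratio of 2.34. Transcript t2 (2857 bases) had 8.30 FPKM at 12 h (6.95 to 9.31) and 13.2 FPKM in the replete culture (12.0 to 14.4), a ratio of 0.63. Transcript t1 thus made up 79.35% of the gene at 12 h and 50.86% in the replete culture, and the transcripts lay on opposite sides of the median of all genes, with centred log2 ratios of 0.96 and -0.81. The RSEM intervals of each transcript did not overlap between the conditions. Of 1613 genes with more than 1 transcript and at least 10 FPKM in both conditions, 51 (3.16%) had a transcript whose share of the gene moved by 20 points or more, and ATG7 ranked 22nd of the 1613 by this shift. The median of the largest shift per gene was 2.54 points, and 4 genes reached 50 points. Of the 7 named genes with more than 1 transcript, ATG7 was the only one to reach 20 points. ATG12, for example, had transcript t1 at 51.89% of the gene at 12 h and 56.04% in the replete culture, and ATG3 had its transcript t1 at 95.95% and 96.30% in the same order of conditions. Reads shared by transcripts of one gene are divided by RSEM's model, and no transcript sequence was used here, so what sets t1 and t2 apart beyond their length is not described.

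**Figure D5:**
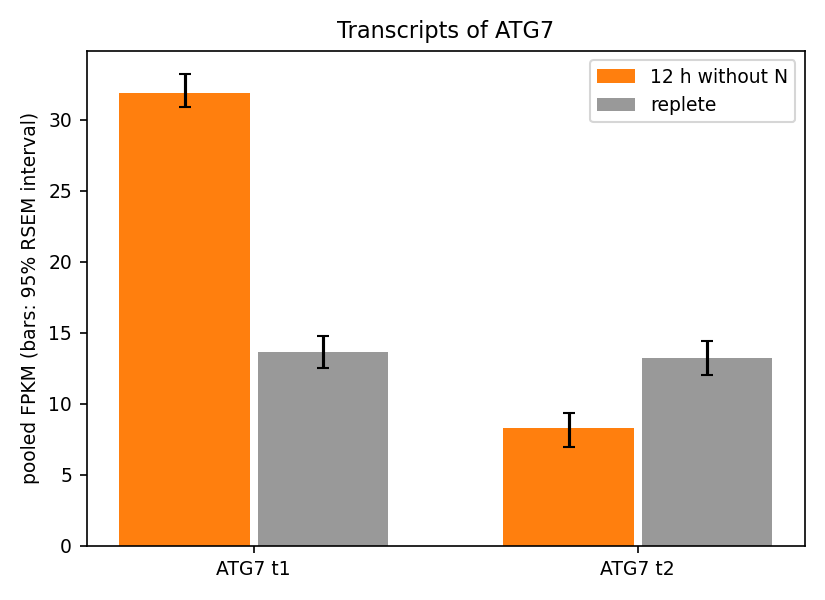
Pooled FPKM (vertical axis, from 0) of the 2 ATG7 transcripts at 12 h without N (orange) and in the replete culture (grey), with bars for the 95% RSEM intervals. Transcript t1 stands at 31.9 FPKM at 12 h and 13.65 FPKM in the replete culture, and t2 at 8.30 FPKM at 12 h and 13.2 FPKM in the replete culture.

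The genes of fatty acid β-oxidation, the breakdown of fatty acids in the peroxisome, differed less than the lipid storage genes. MFP (g12483), the multifunctional protein of the middle steps, had 108 FPKM at 12 h and 75.0 FPKM in the replete culture, a centred log2 ratio of 0.32. KAT (g8556), the 3-ketoacyl-CoA thiolase of the last step, had 91.3 FPKM at 12 h and 63.5 FPKM in the replete culture, also a centred log2 ratio of 0.32. ABC (g1747), a transporter of the D family that brings fatty acids into the peroxisome in plants, had 23.2 FPKM at 12 h and 25.0 FPKM in the replete culture, a centred log2 ratio of -0.30. Relative to the median of all genes the enzymes thus stood higher and the transporter lower, each by less than a fold of 1.5. At 72 h MFP had 126.5 FPKM in NL and 138 FPKM in HL, KAT had 67.6 and 90.1 FPKM, and ABC had 22.9 and 20.9 FPKM.

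The genes related to polyphosphate were on opposite sides of the median. VTC4 (g13494), the counterpart of the yeast subunit that builds polyphosphate chains at the vacuole membrane, had 44.8 FPKM at 12 h (44.3 to 45.2) and 60.5 FPKM in the replete culture (59.8 to 61.1). Its centred log2 ratio was -0.63, above 15.3% of genes, and it was the only named gene at least 1.5-fold lower. That call was lost without centring, where the log2 ratio was -0.42, and with no minimum of FPKM, where it was -0.54. VTC4 had 27.9 FPKM at 72 h in NL and 43.6 FPKM in HL, the latter close to the 12 h level in FPKM without centring. PAPase (g13792), a putative acid phosphatase, had 69.6 FPKM at 12 h (68.9 to 70.3) and 42.0 FPKM in the replete culture (41.3 to 42.7), a centred log2 ratio of 0.51. Since PAPase was picked from these samples, its direction is not independent evidence. PAPase had 128 FPKM at 72 h in NL and 123 FPKM in HL, above the 12 h level.

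The reference genes used to scale quantitative PCR in the study lay close to the median of all genes. COX3 (g10280), a subunit of mitochondrial cytochrome c oxidase, had 340 FPKM at 12 h and 295 FPKM in the replete culture, a ratio of 1.15 and a log2 ratio that was 0.00 centred, after rounding, and 0.20 without centring. SNRP (g7308), a small nuclear ribonucleoprotein, had 223 FPKM at 12 h and 211 FPKM in the replete culture, which is -0.12 centred and 0.08 without centring. To 3 digits the ratio of COX3 equalled that of the median gene.

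The authors' mean normalized counts per condition, scaled by their own method, gave 2166 genes at least 2-fold higher and 1290 at least 2-fold lower after the same centring. For these, 1 normalized count was added to both levels in place of 1 FPKM. FPKM with no pseudocount gave 2215 higher and 1299 lower, so the larger counts do not show an effect of the scaling alone. Shared were 1781 genes of these 2166 and of the 1869 higher by FPKM, and 1014 genes of these 1290 and of the 1057 lower by FPKM. Of the genes called by FPKM, 0 had the opposite sign by mean normalized counts, and the median absolute difference between both log2 ratios was 0.10. In mean normalized counts the centred log2 ratio was 2.33 for MLDP, 1.48 for DesD5, 0.79 for ATG4, 0.49 for ATG8 and -0.65 for VTC4.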

How the data were processed

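RNA of 32 samples was quantified by the authors. Tools listed in the submitters' processing notes are Bowtie 1.0.0, CASAVA 1.8, cutadapt 1.1, DESeq (no version) and RSEM 1.2.9. The ATG-related genes were sought by the authors in a deposited L. incisa genome, and for sequencing details the study points to an earlier publication. The assembly and annotation versions used in quantification are not given in the sources used here. For each gene and transcript, expected counts (not normalized), TPM and FPKM with 95% intervals, and the percent of each gene held by each transcript, were deposited by the authors as 1 pooled value per condition for 16722 genes and 20212 transcripts. In the gene values of the replete culture the effective length equals the length in every row (0 differ). The other conditions and the transcripts were not checked for this. The deposited expected counts sum to 148630272 at 0 h, 285924034 at 12 h, 329774484 at 72 h in normal light and 214719396 in high light. From the authors' pairwise table only the mean normalized counts (a signal scaled by the authors) of 12 h and replete were used. Its folds and p-values, and those of their test over all conditions, were not used. The number of columns with values per sample was 0, so the count test that was planned was not run.

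The log2 ratio of FPKM (pseudocount 1) less its median was computed over genes with at least 1 FPKM in either condition, without a test. Sets were described by counts at folds of 1.5, 2, 4, 8 and 16. A gene was named if it is one of the 22 ATG-related or 10 PCR-monitored genes whose identifiers the study gives (31 distinct), or one of the 2 identifiers with the largest difference in each direction among genes with at least 10 FPKM in either condition. The genes, lists and thresholds were chosen with earlier results of these data known. The alternatives were TPM, expected counts divided by their total and by length, median-of-ratios scaling, no centring, pseudocounts of 0.1 and 0, minimums of 0 and 10 FPKM, the most abundant transcript, posterior mean FPKM, mean normalized counts, and other folds and groupings. The shares of ATG7 transcripts by posterior mean were added after seeing the data. The ratio was tried on simulated counts with known folds. Recovery of these folds was required only without a pseudocount, unlike the reported ratios. The software was matplotlib 3.10.9, scipy 1.17.1, pandas 2.3.3 and numpy 2.4.6 under Python 3.11.15.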

Additional observations from a re-analysis of the deposited data

How the results depend on the processing

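No paired analysis was possible because each condition has 1 pooled value, and for the same reason leaving out replicates and the count test were not run. With a fold of 1.5 in place of 2 there were 3048 higher and 2360 lower genes, and with a fold of 4 there were 501 higher and 333 lower. Under the other alternatives the counts lay between 1328 and 2386 higher and between 806 and 1299 lower, within 1.5 times the reported ones. The median of the 22 ATG-related genes was 0.38 without centring and 0.27 with no minimum of FPKM, where it was 0.17 as reported, since both settings alter the value subtracted. The 100 most abundant genes held 14.1% of expected counts at 12 h and 22.02% in the replete culture. With at least 5 FPKM asked for, 11 genes were listed at 12 h only and 1 in the replete culture only. With 10 groups by level in place of 5, 16.9% of the lowest group was higher and 16.2% of the highest group was lower. Over 381 values of the 35 named genes and identifiers under 11 alternatives, 0 of the genes past a fold of 2 fell below it. Those genes were MLDP, DesD5 and the identifiers picked from these data for the largest differences, whose staying past it was fixed by that choice. ATG4 passed a fold of 2 under 2 settings (1.12 without centring and 1.01 with no minimum of FPKM). By posterior mean, ATG7 transcript t1 made up 79.6% of the gene at 12 h and 51.0% in the replete culture. The values used here carry no spread between cultures, and the authors' own test was not used, so differences of the size of the ATG-related genes were not set against culture to culture variation.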

Other observations

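Genes with a single transcript differed more often upward than genes with more than 1. Among the 2300 genes kept with more than 1 transcript, 9.70% were at least 2-fold higher at 12 h and 6.87% at least 2-fold lower, and among single-transcript genes 14.0% were higher and 7.66% lower. These groups were not matched by level or length, which also went with the share that was higher. In the lowest of the 5 groups by level, length also went with the share that was higher. There, 29.1% of the longest genes and 14.5% of the shortest were at least 2-fold higher at 12 h, and 4.51% of the longest and 8.17% of the shortest were at least 2-fold lower. In the next group by level the share higher was 14.9% for the longest genes and 15.96% for the shortest, while 2.34% of the longest and 9.84% of the shortest were lower.

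ATG18 is listed with 7 transcripts, of which t4 held 62.09% of the gene at 12 h and 60.89% in the replete culture, and 2 transcripts of ATG18 are listed at 0 in both conditions. No share of an ATG18 transcript moved by more than 1.31 points.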
